A study of Mus musculus with 12 samples.

Results

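The 6 genes described here belong to the machinery that makes and removes proteins: Rps7 and Rps2 of the small ribosomal subunit, Rpl32 and Rpl13a of the large subunit, the elongation factor Eef1a1 and the proteasome subunit Psmb3. They are 6 of the 188 genes that the 2 array designs of the study measured, and all 6 are spotted on the hypoxia arrays, with 7 spots in all. Rpl13a, which both designs carry as a reference gene, also has 2 spots on the angiogenesis arrays. They were selected on their measured densities on these same arrays, because some were brighter and others dimmer at day 14 than at day 7. The day 14 against day 7 values are therefore a description of that choice and carry no test.

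The RNA came from fracture callus, the repair tissue that forms around a broken bone, taken from mice whose femur had been broken by a closed fracture and fixed. The 6 groups were WT mice and mice labelled HET for HIF-1a, which the series title describes as partial HIF-1alpha deficiency, each sampled 7, 10 and 14 days after fracture. All mice were fractured, so no group shows unbroken bone, and the sources used here do not give the type of the HIF-1a allele, the strain, the sex or the age. Each group was 1 pool of the RNA of 3 animals, measured once on a hypoxia array and once on an angiogenesis array, so no group has a replicate and the spread between animals cannot be seen. In whole callus, fewer cells of a type and less RNA per cell cannot be told apart.

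Ribosomal proteins bind ribosomal RNA and together form the particle that translates messenger RNA, and their genes are transcribed in nearly every cell. Their messages, and that of Eef1a1, typically start with a run of pyrimidines, C and T, through which growth signals acting by mTOR control how strongly they are translated. eEF1A brings each charged transfer RNA to the ribosome, and the proteasome degrades proteins tagged with ubiquitin, including HIF-1alpha when oxygen is plentiful. In a healing fracture, cells that secrete cartilage and bone matrix translate large amounts of protein.

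The members have a role in common but not a pattern over days. The lack of a shared pattern follows from their selection, which took some genes that became brighter and others that became dimmer. That lack is therefore a description of the choice and no finding about the machinery. The start regions of 5 members are printed to show how they differ in pyrimidine runs near the annotated start. They come from RefSeq, build GRCm38.p6, and run 5′ to 3′ on the gene's strand over 60 bases, from 45 before the annotated start to 15 after it. Capitals mark the longest unbroken run of C and T found within 25 bases on either side of the start.
Rps7: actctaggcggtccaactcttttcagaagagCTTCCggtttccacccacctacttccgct
Rps2: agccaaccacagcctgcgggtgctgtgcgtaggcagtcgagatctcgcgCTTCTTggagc
Rpl13a: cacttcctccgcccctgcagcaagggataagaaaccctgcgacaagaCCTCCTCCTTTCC
Eef1a1: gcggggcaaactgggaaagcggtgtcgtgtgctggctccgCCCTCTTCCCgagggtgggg
Psmb3: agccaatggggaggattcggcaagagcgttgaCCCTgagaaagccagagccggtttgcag

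These windows lie at chr12:28635939-28635998 on the minus strand for Rps7, chr17:24720018-24720077 on the plus strand for Rps2 and chr7:45128731-45128790 on the minus strand for Rpl13a. Those of Eef1a1 and Psmb3 lie at chr9:78481710-78481769 on the minus strand and chr11:97703389-97703448 on the plus strand. Rpl32 has no entry in the table used. The run was longest in Rpl13a, with 14 bases that begin at position 3 of the transcript and end just past the printed window, and 2.6% of 32544 RefSeq start regions had a run at least that long. Eef1a1 had a run of 10 bases that begins at position −5 and crosses the annotated start, a length reached by 9.3% of start regions. The runs of Rps2, Rps7 and Psmb3 had 6, 5 and 4 bases, lengths reached by 43.9%, 64.7% and 84.4% of start regions. That of Rps2 begins at position 5. Those of Rps7 and Psmb3 begin at −14 and −13 and lie wholly before the annotated start, outside the annotated transcript. Whether the runs go with the densities over days was not tested.

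Short motifs were searched on both strands of the whole 300-base windows, 250 before the start and 50 after it. The letters CTTCCG, the core bound by ETS-family factors, occurred 3 times in Rps7, 2 times in Rps2 and 1 time in Psmb3, and neither in Rpl13a nor in Eef1a1. They occurred in 17% of all start regions. The letters ACGTG, the core of the hypoxia response element that HIF-1 binds, occurred only in the Rpl13a window among the 5, and in 19.7% of all start regions. There they matched 1 time on each strand, which may be 1 shared stretch. The letters TATAAA occurred in the Rps2 window, 1 time on each strand, in none of the other 4, and in 13.6% of all start regions. A match describes the letters and not a bound site.

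Spot density, the darkness of a spot in the scanner's units, is the deposited measurement. A gene was taken as above background on an array where a spot of it was brighter than the brightest of that array's 6 control spots, which carry plasmid DNA or nothing. That limit ranged from 12.7 to 805 on the hypoxia arrays, and between 20 and 56 of 100 genes passed it on an array. Densities of 45701 or more, 90% of the highest density of the series, were treated as the ceiling, above which a spot says only that the signal was at least that bright. Repeat spots of a gene had a pooled standard deviation of 0.436 on the log2 scale over 29 sets of spots, and that is the only technical error these arrays give. Hif1a, the targeted gene, had densities of 137, 30822 and 15394 at days 7, 10 and 14 on the WT hypoxia arrays. The HET arrays gave 5509, 18939 and 4766. At day 7 the array labelled HET was thus the brighter in raw density, although its label names a partial deficiency, and the same held on the angiogenesis arrays at that day (8037 and 25140). The type of the allele and the place of the probe are not given, so the label does not fix the signal of this spot. The cause was not tested. Of the markers chosen for callus cell types, the hypoxia arrays carry 3 of 33. Col1a1, the main collagen of bone, was bright on all 6 arrays (41175 to 49757), the adipocyte gene Fabp4 was brighter at day 10 (44652 and 43925) than at any other day (388 to 1393), and the adipocyte gene Lep was above background on none. The angiogenesis arrays of the same pools carry 10 of the 33. Of these, 1 was above background at day 7 in each genotype, 9 and 10 at day 10 and 9 and 7 at day 14 in WT and HET. The summed density of the 2 macrophage markers Msr1 and Cd36 was 32.3, 40820 and 8175 at days 7, 10 and 14 in WT and 226, 40179 and 14391 in HET. That of the 6 endothelial markers was 175, 69191 and 60494 in WT and 803, 54881 and 45770 in HET, and that of the bone matrix markers Sparc and Spp1 463, 51204 and 57500 in WT and 6115, 40497 and 58128 in HET. At days 10 and 14 most of the endothelial sum was Flt1 (49686 and 49470 in WT, 48633 and 42065 in HET), at the ceiling on all but the last. Its other markers moved otherwise: Cdh5 read 4936 and 960 in WT and 1781 and 131 in HET, while Tek in HET read 3123 and 3193. Most of the bone matrix sum was Sparc. No marker of cartilage, muscle or neutrophils is on either design. These marker levels also differed between days, and their part in the members' day differences was not tested. They are raw densities, while the median gene density of the angiogenesis arrays ran from 34.1 to 1738, in WT at days 7 and 10. Their order between days can change with the normalization described below. It put Spp1 in WT at 11.48 at day 7, under background, and 9.21 at day 10, while Msr1 kept its order at 6.90 and 12.07.

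Rps7, a protein of the small ribosomal subunit that also takes part in the MDM2 and p53 stress response, was bright early and dim late in both genotypes. Its densities on the WT arrays were 32635, 48887 and 496 at days 7, 10 and 14. On the arrays labelled HET they were 27063, 49315 and 846. Both day 10 values lay at the ceiling and all 6 values were above background. Every day 14 value was far below every day 7 and day 10 value, and at each day the WT and HET arrays lay closer to each other than to the other days.

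Psmb3, a beta subunit of the core of the proteasome, had a pattern of the same kind. Its WT densities were 39666, 49235 and 1813 at days 7, 10 and 14, and its HET densities were 37155, 49370 and 2575. As for Rps7, the day 10 values lay at the ceiling, and the 2 day 14 values lay below the other 4.

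Eef1a1, the elongation factor, was bright on every array. Its WT densities were 47285, 49337 and 31535, and its HET densities 48022, 49982 and 29800, with all 4 values of days 7 and 10 at the ceiling. Day 14 was the dimmest day in both genotypes, and the only day on which its spots lay below the ceiling.

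Rps2, a small-subunit protein near the entry channel of messenger RNA, peaked at day 10 in density. Its WT densities were 17.3, 29857 and 4363 at days 7, 10 and 14. On the arrays labelled HET they were 297, 43574 and 1271, of which the day 7 value was not above background. The order of the days was the same in both genotypes, while the order of the genotypes was not: the HET value was the higher at day 10 and the lower at day 14. At day 7 its WT density was just past the brightest control spot of 12.7.

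Rpl32, a large-subunit protein, was measured above background at day 14 alone. The WT arrays gave densities of 7.99, 38.9 and 2464, those labelled HET 265, 714 and 1666. The values of days 7 and 10 lay below the brightest control spot of their own array in both genotypes, so the readings of those days give no order of the genotypes.

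Rpl13a, a large-subunit protein that also silences inflammatory messages in macrophages once released from the ribosome, was dimmest at day 7 on the hypoxia arrays. The means of its 2 spots were 12.7, 2170 and 3167 in WT. In HET they were 437, 10190 and 2982. The day 7 values barely passed background: the WT spots read 10.99 and 14.3 against a brightest control of 12.7, and the HET spots read 277 and 597 against 391. The genotypes overlapped over days, with the highest single value on the HET day 10 array. After background correction the repeat spots differed most on the HET day 7 array, by a standard deviation of 1.96 on the log2 scale, the widest of the 29 sets, while the raw densities lay farthest apart on the HET day 14 array, at 1338 and 4626.

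**Figure D1:**
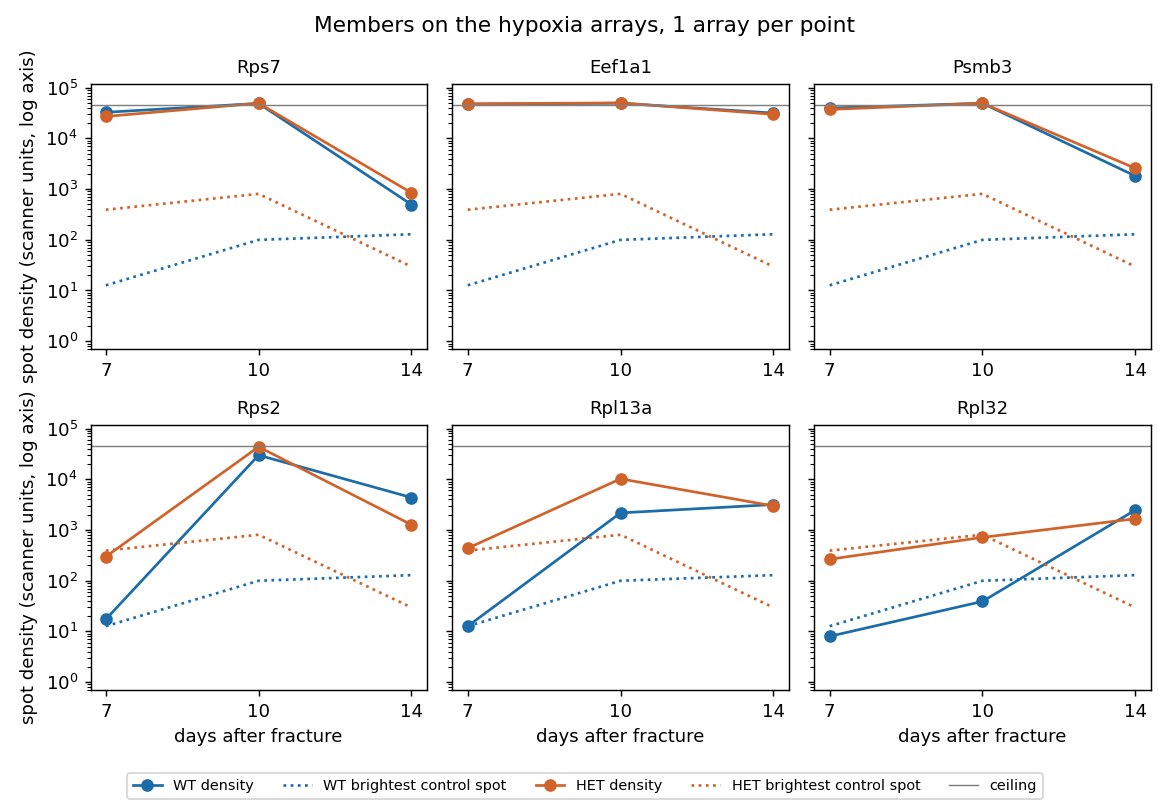
Spot density in scanner units on a log axis against days after fracture for the 6 genes on the hypoxia arrays, with 1 array per point, WT in blue and HET in orange. Dotted lines are the brightest control spot of each array and the grey line is the ceiling of 45701. The upper genes are dimmest at day 14, and the lower genes lie near or under the dotted lines at day 7.

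To compare arrays, densities were background-corrected, put on the log2 scale and quantile normalized, which gives all arrays of a design the same distribution of values. The same differences were also computed without normalization, with arrays scaled to their median gene, and with arrays scaled to the reference genes other than Rpl13a. Those genes, Actb, Gapdh and Ppia, lay at the ceiling on 5, 3 and 2 of the 6 hypoxia arrays, the day 10 arrays among them. Reference scaling is therefore limited by the ceiling, and the 4 scalings are not separate checks. These scalings disagree strongly on these membranes: the median of all hypoxia-array genes shifted between pairs of arrays by −3.09 to 3.60 without normalization, by −1.10 to 1.17 under median scaling, by −2.52 to 3.35 under reference scaling and by at most 0.09 under quantile normalization. A difference is given below as the quantile value followed by its range over the 4 scalings. Where 1 array of a pair was under background, each scaling gives a lower bound of its own, and "at least" marks the smallest of the 4. Differences with an array at the ceiling are given as computed, since the true signal there is unknown.

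Between days 7 and 14, the contrast by which the genes were chosen, each of the 6 had one direction under all 4 scalings in both genotypes. Where 1 array of a pair was under background, a bound that made it the brighter was dropped. The bounds of Rpl32 and of Rps2 in HET could therefore not turn. With 1 background limit for all arrays of the design, Rps2 in WT and Rpl32 in HET stood at 0. Rpl13a and Rpl32 in WT and Rps2 in HET had no value there, and Rpl13a in HET stood at 1.76. In WT, Rps7 was lower at day 14 by a log2 difference of −5.69 (range −7.71 to −5.69) and Psmb3 by −4.54 (−6.17 to −4.43), while Eef1a1, at the ceiling at day 7, had a difference of −0.43 (−2.33 to −0.43). Rpl13a was higher at day 14 by 3.44 (3.44 to 6.33), Rps2 by 3.52 (3.52 to 6.64) and Rpl32 by at least 2.68 (2.68 to 5.98). The WT day 7 densities of Rpl13a and Rps2 lay near the brightest control spot, as given above. In HET, Rps7 differed by −4.91 (−5.23 to −4.62), Psmb3 by −2.12 (−4.11 to −2.12) and Eef1a1 by −0.28 (−0.96 to −0.28). On the same HET arrays Rpl13a was higher by 2.91 (2.91 to 4.47), Rpl32 by at least 1.15 (1.15 to 3.89) and Rps2 by at least 0.69 (0.69 to 3.51).

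In WT, 3 of the 6 members were thus past 2-fold higher at day 14 and 2 past 2-fold lower, where 27.3% and 39.4% of the 33 genes with a value were called higher and lower. In HET 2 were higher and 2 lower, against 26.1% and 30.4% of 23 genes. With 1 background limit for all arrays of the design, the brightest control spot of any, the higher calls were 0 in WT and 1 in HET. The members' median was 1.12 in WT and 0.21 in HET, beside −0.41 and 0 over all genes with a value. Since this contrast chose the genes, these counts say nothing about them beyond the choice.

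The steps from day 7 to 10 and from day 10 to 14 show where the day 7 and day 14 levels part. Each step uses the day 7 or the day 14 arrays, on which the members were selected. Their counts and medians are therefore a description with no test. From day 7 to day 10, Rps2 was the member with the largest difference, at 2.82 in WT (2.82 to 9.41) and at least 3.32 in HET (3.32 to 8.25). Rps7 and Psmb3 reached the ceiling at day 10, with differences of 0.07 and 0.08 in WT and 0.58 and 0.25 in HET, which turn to −2.19, −2.46, −3.68 and −4.13 when arrays are scaled to their medians. Rpl13a differed by −0.36 in WT (−0.36 to 5.62) and by −0.32 in HET (−0.32 to 6.15), so that its direction depends on the scaling. Eef1a1 lay at the ceiling and Rpl32 under background at both days. With 4 members having a value, 1 was called higher and none lower in each genotype. All genes with a value were called higher and lower in 12.5% and 25% of 32 cases in WT and in 15.8% and 21.1% of 19 cases in HET, and the members' medians were 0.08 and 0.41 beside 0.01 and −0.13 over all genes.

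From day 10 to day 14, Rps7 was lower, with a difference of −5.76 in WT (−6.55 to −5.52) and −5.49 in HET (−5.82 to −1.55), with day 10 at the ceiling. Psmb3, also at the ceiling at day 10, was lower in WT by −4.63 (−4.74 to −3.71). In HET its difference was −2.37, and it stood at 0.022 under median scaling, the other scalings giving −4.25 and −3.67. Rpl32, under background at day 10, was higher at day 14 by at least 4.03 in WT and at least 1.03 in HET. Under quantile normalization these bounds were 4.77 and 4.36. Rpl13a was higher in WT by 3.80 (0.71 to 3.80), while in HET the value of 3.23 turned to −2.01 without normalization and −1.43 with reference scaling. Rps2 was lower in HET by −2.62 (−5.07 to −0.80), and in WT its 0.71 turned to −2.77, −1.73 and −2.58 under the other scalings. Eef1a1 differed by −0.43 in WT and −0.31 in HET, with the day 10 arrays at the ceiling, and by 0.39 and 3.52 under median scaling.

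In that step 2 members were called higher in each genotype, 2 lower in WT and 3 lower in HET, out of 6. All genes were called higher and lower in 28% and 30% of 50 cases in WT and in 25% and 25% of 56 cases in HET. The members' medians were 0.14 and −1.34 beside −0.02 and −0.22 over all genes with a value. Since the day 14 arrays took part in the choice of the members, these counts and medians are a description only.

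**Figure D2:**
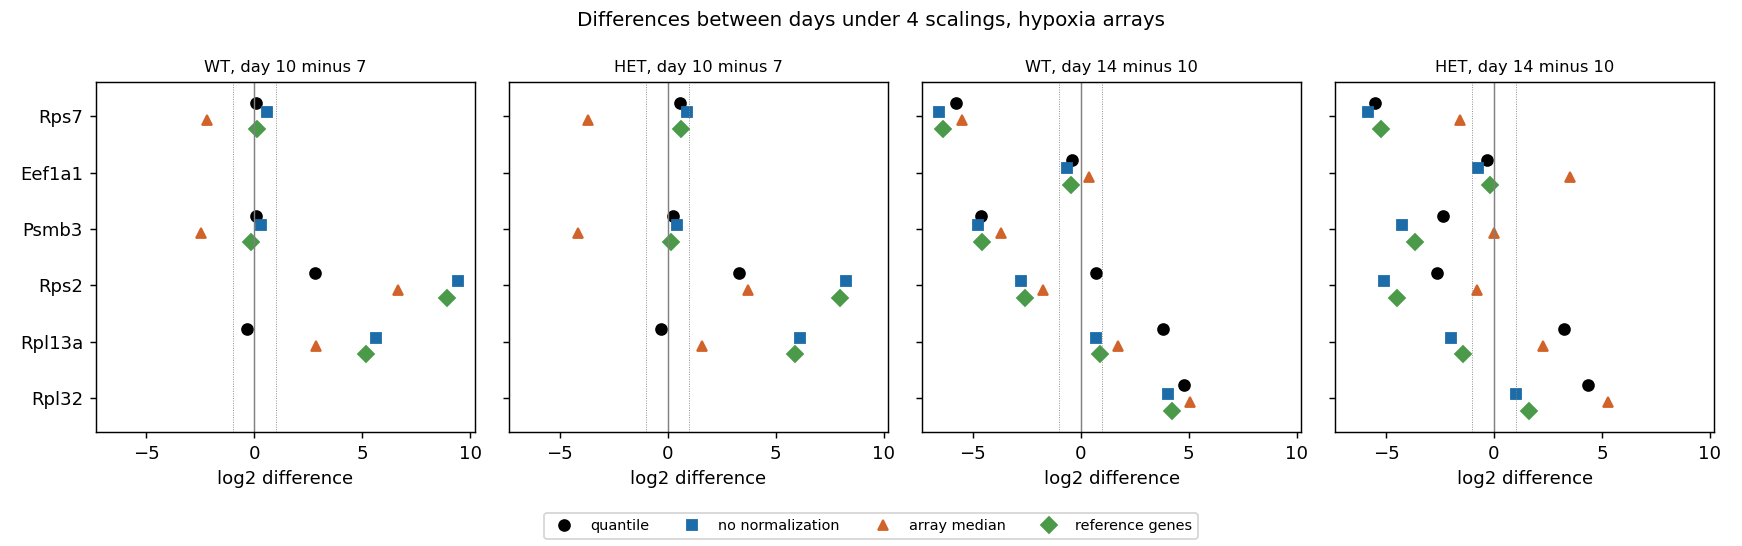
Log2 differences between days (x axis) for the 6 genes (y axis) under the 4 scalings, for WT and HET on the hypoxia arrays, with dotted lines at 2-fold. Rpl32 in both steps to day 14 and Rps2 in the HET step from day 7 are plotted at their lower bounds, genes at the ceiling or under background on both arrays are left out, and Rps7 lies left of 0 under every scaling from day 10 to 14, while Rpl13a in HET has markers on both sides.

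The comparison that the study set out to make was between genotypes at each day. At day 7, Rps7 and Psmb3 were dimmer on the array labelled HET by −0.45 (−0.65 to −0.28) and −0.25 (−0.48 to −0.10), both within 2-fold. Rpl13a was brighter by 1.23 (1.23 to 1.86), on spots that lay at the level of the control spots, and by −0.67 when the dimmest spot of a gene was taken. Eef1a1 was at the ceiling on both arrays, Rpl32 was not above background on either, and Rps2, above background on the WT array alone, gave no bound. Among the 3 members with a value, 1 was called higher and none lower, beside 15% and 10% of 20 genes, and the members' median was −0.25 beside 0 over all genes. The 1 call became 0 with the dimmest spot and with 1 background limit for the design.

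At day 10, Rpl13a was higher in HET by 1.28 (0.24 to 2.39) and Rps2 by 1.11, which turned to −1.61 under median scaling. Rps7, Eef1a1 and Psmb3 were at the ceiling in both genotypes and Rpl32 under background in both, so 4 of the 6 members give no genotype difference at that day. Both members with a value were called higher, beside 12.5% of 48 genes called higher and 14.6% called lower, with a median of 1.196 beside 0.05. With normalization redone without the day 7 arrays, a setting chosen after seeing the data, 1 was called.

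At day 14 all 6 members could be compared. Psmb3 was higher in HET by 2.17 (0.50 to 2.17) and Rps2 lower by −2.22 (−2.22 to −0.67). Rps7 was higher by 0.32 (0.32 to 1.83). Rpl13a differed by 0.71 (−0.33 to 0.76), Rpl32 by −0.30 (−0.56 to 0.53) and Eef1a1 by 0.13 (−0.08 to 1.004), values whose sign depends on the scaling. The calls were 1 member higher and 1 lower, beside 15.2% and 17.4% of 46 genes, and the members' median was 0.22 beside 0.01. Among the 4 scalings, Psmb3 was past 2-fold under quantile and median scaling alone, and its densities of 1813 and 2575 lay closer together than the normalized difference shows.

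**Figure D3:**
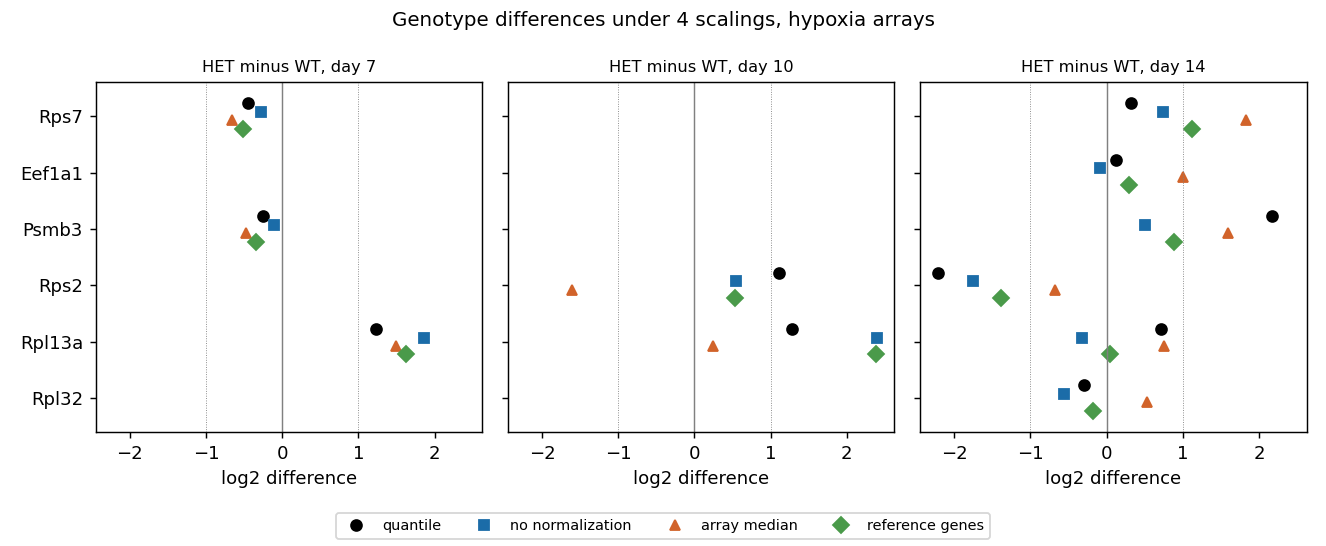
Log2 differences of HET minus WT (x axis) on the hypoxia arrays for the 6 genes (y axis) at each day under the 4 scalings, with 1 array per genotype and day and dotted lines at 2-fold. Day 7 shows 3 genes, day 10 shows 2 and day 14 shows 6, and Rps2 lies left of 0 at day 14 under every scaling but on both sides at day 10.

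All 3 days were then joined in 1 limma model of genotype and day. With 2 residual degrees of freedom, a gene's own error is how much its genotype difference changed from day to day, with array error in it. Limma then pulled that error toward a value shared by all genes tested, so the SEs and intervals below rest on both. Of 73 hypoxia-array genes tested, 0% passed a Benjamini-Hochberg adjusted p of 0.05, where 3 had an unadjusted p under 0.05. The lowest adjusted p was 0.669. Rpl13a was among those 3, with a log2 effect of 1.07 higher in HET (SE 0.24, 95% interval 0.33 to 1.82, limma adjusted p = 0.669) and a higher HET value at 3 of 3 days on the quantile scale. At day 14 its density was the lower in HET, and that day's difference was −0.33 without normalization. Taking the dimmest spot of Rpl13a in place of the mean gave −0.092, and leaving out a day gave 0.97 to 1.26. The intervals of Psmb3 (0.61, −1.38 to 2.60) and Rps2 (−0.55, −2.96 to 1.86) each spanned changes of more than 2-fold in both directions. Those of Rps7 (−0.03, −0.84 to 0.78) and Eef1a1 (0.04, −0.57 to 0.64) stayed within 2-fold, with 2 and 4 of their 6 values at the ceiling. That of Rpl32 (−0.08, −1.12 to 0.96) includes 4 values under background.

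The same fit gives day 10 against the mean of days 7 and 14. Its values draw on the day 7 and day 14 arrays on which the members were selected, and Rpl32 was under background on all 4 arrays of days 7 and 10 and entered the fit through day 14 alone. The members' effects are therefore a description with no p. Over all 73 genes, 9.59% passed the adjusted limma threshold, or 7 genes, which became 0 with the dimmest spot of each gene and 43 without normalization. Rps7 was higher at day 10 by 2.98 (SE 0.28), with both day 10 values at the ceiling, and by 0.30 under median scaling. Rps2 was higher by 2.30 (SE 0.83), and by 3.45 to 6.61 under the other 3 scalings. Psmb3 had an effect of 1.83 (SE 0.69) and Eef1a1 one of 0.19 (SE 0.21), and both turned negative under median scaling, at −0.73 and −2.78. Rpl13a was lower by −1.93 (SE 0.26), and turned to 0.11, 2.89 and 3.27 with median scaling, reference scaling and no normalization.

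Rpl13a can be followed on both designs, with 2 spots on each. On the angiogenesis arrays its WT spots read 325 and 575 at day 7, 1193 and 1640 at day 10, and 1903 and 1218 at day 14. The spots of the arrays labelled HET read 817 and 981 at day 7, 768 and 558 at day 10, and 1623 and 1394 at day 14. All 6 arrays were above background, the genotypes overlapped, and the range over arrays was far narrower than on the hypoxia arrays, where the same pools gave means from 12.7 to 10190.

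After normalization the 2 designs gave opposite directions for Rpl13a between days 7 and 14. On the angiogenesis arrays the difference was −4.89 in WT and −3.51 in HET, against 3.44 and 2.91 on the hypoxia arrays. The angiogenesis values turned to 1.67 and 0.83 without normalization and to 2.04 and 1.21 with reference scaling. Only 9 and 12 of 100 genes were above background on the WT and HET day 7 angiogenesis arrays, beside 44 to 91 on the later ones. Genotype differences of Rpl13a on that design were 0.00 at day 7 (−0.19 to 0.90), 0.34 at day 10 (−1.20 to 0.42) and 1.38 at day 14 (−0.01 to 2.95). The limma genotype effect there was 0.57 (SE 0.52, 95% interval −0.74 to 1.88, adjusted p = 0.870), and 0% of 96 genes passed, where 2 had an unadjusted p under 0.05. Day 10 against the mean of days 7 and 14 gave −2.93 for Rpl13a (SE 0.55), a description as on the hypoxia arrays, and reference scaling turned it to 1.13. Over all genes, 19.8% passed in that limma contrast.

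**Figure D4:**
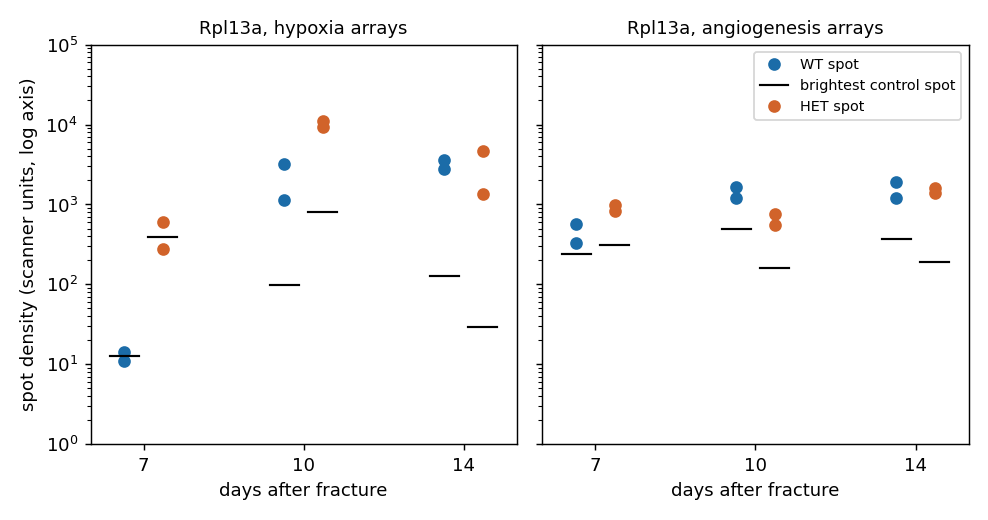
Density of each Rpl13a spot in scanner units (log axis) by day on the hypoxia arrays and the angiogenesis arrays, with WT in blue, HET in orange and black bars at the brightest control spot of the array. The day 7 hypoxia spots lie around the bars, and the angiogenesis spots lie above theirs on every array.

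In the authors' deposited table the spots are given relative to the Actb spots of their array. Rps7 stood there at 0.735 of Actb at day 7 and 0.010 at day 14 in WT, and at 0.553 and 0.0171 in HET. Psmb3 stood at 0.893 and 0.0366 in WT and at 0.762 and 0.0521 in HET in the authors' deposited table. Rpl32 stood at 0.00018 and 0.0498 in WT in the authors' deposited table. Its day 7 ratio there came from a density under background and is no measured level, and its HET day 7 ratio is empty. These are the days on which the members were selected. Actb lay at the ceiling on 5 of the 6 hypoxia arrays, so a ratio to it is limited by the ceiling there.

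The genes with the most similar profile to a member, among the 28 other hypoxia-array genes that passed background on 4 or more arrays, are given as a description over 6 arrays that share their normalization. Nearest to Rps7 were Eef1a1 (r = 0.98, and 0.99 without normalization) and Psmb3 (0.94 and 0.999). The same 3 genes were nearest to one another in each case, with ceiling values on 2, 4 and 2 of their arrays. These 3 were selected as dimmer at the last day than at the first, on arrays that the profiles include. Their likeness to one another therefore follows in part from that choice and is no separate evidence that they move together. Nearest to Rpl13a were Plod3, a collagen lysine hydroxylase (0.92 and 0.95), and Chga, a protein of secretory granules (0.82 and 0.88). Rps2 stood nearest to the cytokine gene Il1b (0.86 and 0.91) and to the ribosomal gene Rpl37a (0.79 and 0.94). Rpl32 was above background on 2 of the 6 arrays, too few to give it a profile.

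Of the other genes of the same machinery on the hypoxia arrays, 4 are described: the ribosomal genes Rpl28 and Rpl37a, the proteasome activator subunit Psme2 and the RNA-binding splicing and decay factor Khsrp. None of the 4 reached the ceiling on any array. Rpl28 was above background at day 14 alone, at 209 in WT and 113 in HET. Psme2 was above background at day 10 alone, at 598 in WT and 2442 in HET.

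Rpl37a was above background at days 10 and 14, with 310 and 170 in WT and 1425 and 42.9 in HET. Khsrp read 25.6 and 422 above background at days 7 and 10 in WT, and 6317 at day 10 in HET. Among values above background, each of the 4 was brightest at day 10 or day 14. At day 7, 1 of the 4, Khsrp, was above background, in WT alone, whereas Rps7, Psmb3 and Eef1a1 were above it in both genotypes. In the fitted genotype effect over the 3 days none of the 4 passed (limma adjusted p of 0.748 to 0.991).

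**Figure D5:**
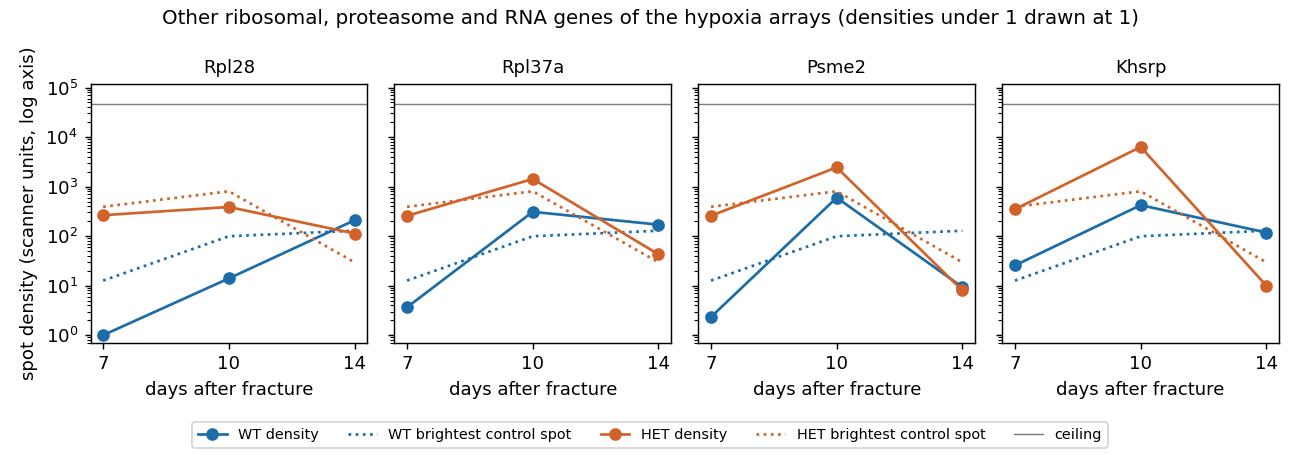
Spot density in scanner units (log axis) by day for the 4 other ribosomal, proteasome and RNA genes described on the hypoxia arrays, with WT in blue, HET in orange, dotted lines at the brightest control spot and the grey line at the ceiling. Densities under 1 are drawn at 1, and no gene comes near the ceiling.

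Ribosomal and elongation factor genes have many processed copies, and RefSeq names 12 pseudogenes after Rps2, 3 after Rps7, 2 after Eef1a1, 1 each after Rpl32 and Rpl13a and 0 after Psmb3. The sources used here give no probe positions, and whether a spot also bound message or DNA of such copies was not tested. The RNA had been treated with DNase, per the labels' protocols.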

How the data were processed

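Total RNA of fracture callus was amplified with the AmpoLabeling-LPR kit and measured with biotin label on 12 membrane arrays of 112 spots, 6 of each design, from pools of 3 animals and 3 ug of RNA, per the labels' protocols. The deposited scanner files give each spot's intensity as a density with no local background, and the sources used here do not name the imaging software. The deposited value table gives a ratio per spot, which matched the density minus the array's lowest density, divided by the same for the mean of Actb, and leaves some spots empty.

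One of the 2 scanner files attached to the HET day 7 angiogenesis sample equals the WT day 7 file in every spot and was left out. Densities were corrected with normexp over all spots, raised by an offset of 25.9 (10% of the median gene density of 259), put on the log2 scale, averaged over a gene's spots and quantile normalized within a design, with R 4.3.3 and limma 3.58.1, and figures were drawn with matplotlib 3.10.9. Control spots were left out after normexp. A difference was kept where at least 1 array of the pair was above background and not both were at the ceiling. With only 1 side above background, the dim side took the higher of its own value and the lowest value above background of its array. A bound that made the dim side the higher gave no value. A call needed 2-fold. Limma models held genotype and day as terms and genes above background on at least 1 of 6 arrays, with two-sided tests and Benjamini-Hochberg adjustment at 0.05. Scripts were tested on simulated data.

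Each group was 1 array, so the number of arrays limits the precision. The named genes are the 6 members, the other translation and proteasome genes of the arrays (not all are reported here), reference genes, Hif1a and the 2 genes of most similar profile to each member (not given for Rpl32, which was above background on 2 arrays). The members, the lists and the tests were chosen with earlier results of these data known. Alternatives changed the scaling, the background correction, the offset (50), the spot used, the background limit, the filter, the days and the source of the values.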

Additional observations from a re-analysis of the deposited data

Results flagged for a closer look

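On the hypoxia arrays Rps2 was higher in HET than in WT at day 10 (1.11 on the log2 scale) and lower at day 14 (−2.22). Each value compares 1 array with 1 array, the change of direction was not tested, and with arrays scaled to their medians both values were negative.

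Rpl13a was higher at day 14 than at day 7 on the hypoxia arrays, by 3.44 in WT and 2.91 in HET, and lower on the angiogenesis arrays, by −4.89 in WT and −3.51 in HET. The difference between the designs was not tested, and both angiogenesis values were positive without normalization and with reference scaling.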

How the results depend on the processing

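No paired analysis was possible because each group is 1 array and the labels give no replicate numbers, beyond the pairing of WT and HET arrays by day that the limma models hold through their day term. Signs of the 52 member differences were kept in 52 with an offset of 50, 52 without background correction, 51 with the brightest spot, 47 with the dimmest spot, 41 without normalization, 39 with reference scaling and 38 with median scaling, in 42 of 44 with 1 background limit for a design, in 35 of 46 in the authors' deposited table, and in 24 of 24 normalized without the day 7 arrays. In the next sentences a count is of members at least 2-fold apart on the hypoxia arrays. Median scaling gave 0 higher and 1 lower for HET against WT at day 10, 3 higher and 0 lower at day 14, 2 higher and 2 lower in each genotype from day 7 to 10, and 1 lower in HET from day 10 to 14. Reference scaling and no normalization each gave 1 higher for HET against WT at day 10, 2 higher in each genotype from day 7 to 10 and 1 higher in each from day 10 to 14, and no normalization gave 0 higher at day 14 for HET against WT. The authors' deposited table gave 1 higher at day 10 and 0 at day 14 for HET against WT, 2 higher in WT from day 7 to 10, 0 higher in each genotype from day 10 to 14 and 1 higher in HET from day 7 to 14. The dimmest spot gave 0 higher at day 7 and 2 lower at day 14 for HET against WT, and 2 higher in HET from day 7 to 10. The brightest spot gave 2 higher at day 14 for HET against WT and 1 higher in HET from day 7 to 14, where no background correction also gave 1. With 1 background limit for a design, 0 were higher at day 7 for HET against WT, 0 in WT from day 7 to 10 and from day 7 to 14, and 1 in HET from day 7 to 14. Normalized without the day 7 arrays, a setting added after seeing the data, 1 was higher at day 10 for HET against WT.

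Among differences of at least 2-fold under the main processing, those that turned were as follows, and the cause was not tested. Smaller differences that turned are not listed here and enter only the sign counts above. For HET against WT, Rps2 at day 10 was −1.61 with median scaling, and Rpl13a at day 7 was −0.67 with its dimmest spot. From day 10 to 14 in HET, Psmb3 was 0.022 with median scaling, and Rpl13a was −1.43 with reference scaling, −2.01 without normalization and −2.01 in the authors' deposited table. On the angiogenesis arrays with reference scaling, Rpl13a was −0.0086 for HET against WT at day 14, 2.88 and 1.01 from day 7 to 10 in WT and HET, and 2.04 and 1.21 from day 7 to 14. Without normalization it was 1.60 from day 7 to 10 in WT, and 1.67 and 0.83 from day 7 to 14 in WT and HET. In the authors' deposited table these were 1.66, 1.71 and 0.85, and median scaling gave 0.54 from day 7 to 14 in HET.

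The limma genotype effect on the hypoxia arrays turned for Rps7 to 0.20 with reference scaling, 0.16 without normalization and 0.037 with the brightest spot. It turned for Rpl32 to 0.59 with median scaling, 1.11 with reference scaling, 1.07 without normalization and 0.016 with the dimmest spot. For Rpl13a it was −0.092 with the dimmest spot, for Eef1a1 −0.49 with median scaling and −0.016 without normalization, and for Psmb3 −0.35 with median scaling. Leaving out 1 day at a time gave −0.20 to 0.19 for Rps7, −1.38 to 0.29 for Rps2, −0.43 to 0.15 for Rpl32, −0.0073 to 0.067 for Eef1a1 and −0.17 to 1.04 for Psmb3, and no gene passed in any of these fits. On the angiogenesis arrays the effect for Rpl13a was −0.078 with reference scaling and −0.075 without normalization.

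For day 10 against the mean of days 7 and 14, genes passing on the hypoxia arrays numbered 27 with median scaling, 43 with reference scaling, 43 without normalization, 0 with the dimmest spot, 4 with no filter and 2 with a filter of 4 of 6 arrays. There Rpl13a was 0.11 with median scaling, 2.89 with reference scaling and 3.27 without normalization, Eef1a1 was −2.78 and Psmb3 −0.73 with median scaling. On the angiogenesis arrays 59 genes passed with reference scaling and 9 without normalization, and Rpl13a was 1.13 with reference scaling. Values at the ceiling or near the control spots limit most member differences, as given beside them.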
